A study of Mus musculus with 12 samples.

Results

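Transcripts of Hif1a, Car9 and Adm were counted in the ileum of 12 mice on the nCounter Mouse Tumor Signaling 360 panel, an assay that counts colour-coded probes hybridised to RNA without amplification. These 3 genes are the rows of the deposited value table that carry these names, out of 780 genes. They were chosen by their measured signal in the 4 groups, so their levels and differences are given as a description and carry no test. G007-LK was injected into the peritoneum at 30 mg/kg, 2 times a day. STP1002 was given by mouth once a day at 5 or at 10 mg/kg. Control mice received DMSO by mouth once a day. All groups were treated for 28 days, and 3 of the 8 mice of each group were measured. G007-LK and STP1002 inhibit tankyrases, which mark axin for degradation in the Wnt pathway. Dose, route and number of doses differ together with the compound, and no group received an injection of vehicle. Strain, sex and age are not given in the sources used here.

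Hif1a encodes the oxygen-regulated subunit of the transcription factor HIF-1. When oxygen is present, prolyl hydroxylases modify the protein and the von Hippel-Lindau ubiquitin ligase removes it, and when oxygen is scarce it accumulates, pairs with Arnt and binds a short core sequence near its target genes. The amount of Hif1a mRNA, which is what the panel counts, is also set by signals other than oxygen, among them NF-kB and STAT3. Car9 encodes carbonic anhydrase IX, an enzyme of the outer cell surface that hydrates carbon dioxide and helps cells control their pH. Adm encodes adrenomedullin, a secreted peptide that widens blood vessels and stabilises their lining. Both are textbook targets of HIF-1, and the intestinal lining is a tissue that normally lives at low oxygen.

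The bases just before the transcription start of both targets are shown because they hold the core sequence that HIF-1 binds, written ACGTG or GCGTG and searched on both strands. Both windows are RefSeq sequence of GRCm38.p6, run 5′ to 3′ on the plus strand, which is the strand of the genes, and end at the base before the start. Capitals mark the HIF-1 core and, in Car9, CTTTGAT, one of 2 forms (CTTTGAA and CTTTGAT) of the core read by the TCF factors of the Wnt pathway.
Car9, chr4:43506866-43507025: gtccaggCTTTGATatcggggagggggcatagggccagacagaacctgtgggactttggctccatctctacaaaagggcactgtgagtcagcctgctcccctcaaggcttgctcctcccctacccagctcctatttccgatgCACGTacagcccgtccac
Adm, chr7:110627497-110627656: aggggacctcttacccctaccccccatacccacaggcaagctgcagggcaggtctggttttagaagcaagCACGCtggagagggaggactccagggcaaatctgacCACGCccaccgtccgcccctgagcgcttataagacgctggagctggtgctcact

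In Car9 the HIF-1 core lies on the opposite strand and its first printed base is 18 bases before the start, and the TCF core begins 153 bases before it. Adm holds 2 cores of the form GCGTG on the opposite strand, beginning 90 and 54 bases before the start. The RefSeq window of Hif1a lies before a start within the span of the gene and holds ACGTG 3 times, 2 of them overlapping as CACGTG. Of 32851 RefSeq promoter windows of 160 bases, 29.8% hold ACGTG or GCGTG and 4.47% hold CTTTGAA or CTTTGAT on either strand, so a match is a description of these letters and not a binding site. The genes span 43507026 to 43513729 on chromosome 4 (Car9), 110627657 to 110629820 on chromosome 7 (Adm) and 73901324 to 73947554 on chromosome 12 (Hif1a).

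The libraries differed widely in depth, from 31901 to 508799 recovered counts. A deposited value is a whole probe count multiplied by a factor of the library, between 0.302 and 3.92 signal units per count. The background threshold of a library, its mean negative control plus 2 SD on the same scale, lay between 4.33 and 40.4 units. G007-LK replicate 1 and control replicate 1 are the 2 deepest libraries. Of 780 genes, 539 were above the threshold in all 12 libraries. The label ileum was not checked separately against the markers that define it, such as Fabp6, Slc10a2 and Vil1. These were part of an epithelial list of 22 genes, of which 8 were measured. The general epithelial markers Epcam and Cdh1 were above background in all 12 libraries.

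Hif1a was higher in the ileum of all 3 G007-LK mice than in any other mouse of the study. Its normalized signal was 2714, 268.4 and 372.95 in G007-LK replicates 1 to 3, against 101.8, 140.1 and 113.55 in control replicates 1 to 3. The lowest G007-LK value, 268.4, thus lay above the highest of the 9 other libraries, 209.1. The values rest on 8977, 105 and 438 probe counts in the G007-LK libraries and on 231, 52 and 29 in the control libraries. The group means were 1118 ± 1383 with G007-LK and 118.5 ± 19.6 in control mice (SD, n = 3 each). One mouse carries most of that mean, since the G007-LK values differ 10.1-fold among themselves and the control values 1.38-fold. On the log2(value + 1) scale the difference between G007-LK and control was 2.45 ± 0.65 (moderated SE), or 5.48-fold. It was 1.42 without G007-LK replicate 1, 1.32 without the 2 deepest libraries and 3.71 with edgeR on the recovered counts. The 2 groups did not overlap, which held in the same direction for 10.1% of all genes.

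With STP1002 Hif1a stayed within or near the range of the control mice. At 5 mg/kg its signal was 155.3, 126.7 and 93.0, with a mean of 125.0 ± 31.2 (SD, n = 3). At 10 mg/kg it was 131.3, 209.1 and 119.1, with a mean of 153.2 ± 48.8 (SD, n = 3). Both doses overlapped the control mice and each other. In either direction, 4.74% of all genes separated 5 mg/kg from control and 12.2% separated 10 mg/kg from control. Those wholly higher were 2.82% at 5 mg/kg and 9.36% at 10 mg/kg. The difference from control was 0.06 ± 0.65 (log2, SE) at 5 mg/kg, and -0.07 after median-ratio rescaling. At 10 mg/kg it was 0.34 ± 0.65, in libraries whose median gene stood 0.69 above control, and rescaling by median ratios gave -0.36. The sign of Hif1a at either dose therefore turns with the scaling, while its difference between G007-LK and control was 2.48 after the same rescaling. In the order of the group means, G007-LK stood first, and the neighbours below it, STP1002 at 10 mg/kg, at 5 mg/kg and control, did not differ beyond their spread.

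Car9 was lower in all 3 G007-LK mice than in any other mouse. Its normalized signal was 14.5, 20.45 and 69.8 in G007-LK replicates 1 to 3, against 459.4, 719.3 and 787.0 in control replicates 1 to 3. The highest G007-LK value, 69.8, was below the lowest of the 9 other libraries, 165.0. Counts were 48, 8 and 82 with G007-LK and 1043, 267 and 201 in control mice, so the second G007-LK value has a 95% counting interval (exact Poisson) from 8.83 to 40.3 signal units and lies under the background threshold of its library, 40.4. Group means were 34.9 ± 30.4 with G007-LK and 655.25 ± 173.0 in control mice (SD, n = 3 each). The log2 difference was -4.48 ± 0.63 (SE), the most negative of all 780 genes in this comparison, and -4.04 without G007-LK replicate 1. With values raised to a common background floor it was -3.69. The groups did not overlap, as for 7.95% of all genes in that direction.

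**Figure D1:**
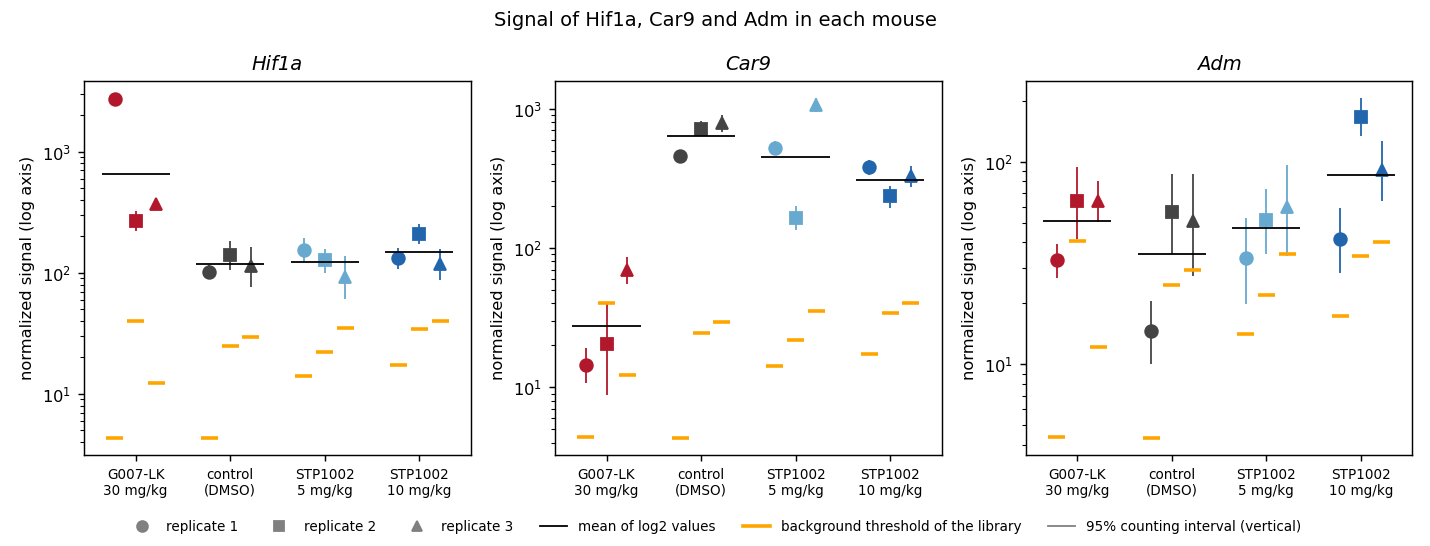
Normalized signal of Hif1a, Car9 and Adm in each of 12 mice on a log axis, with the exact Poisson 95% counting interval (vertical line), the group mean of log2 values (black line) and the background threshold of each library (orange). Hif1a is highest and Car9 lowest in the 3 G007-LK mice, with Hif1a at 2714 in G007-LK replicate 1, while the Adm values of the 4 groups overlap.

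Car9 was also lower in each mouse given STP1002 at 10 mg/kg than in any control mouse, by a smaller amount. At this dose it was 379.2, 234.05 and 327.0, with a mean of 313.4 ± 73.5, against 655.25 ± 173.0 in control mice (SD, n = 3 each). The log2 difference was -1.05 ± 0.63 (SE), and -1.75 after median-ratio rescaling, because the panel as a whole was 0.69 higher. The groups did not overlap, as for 2.82% of all genes in that direction. At 5 mg/kg the 3 mice disagreed, with 521.3, 165.0 and 1060, the last being the highest Car9 value of the study. The mean at that dose was 582.2 ± 450.7 (SD, n = 3) and the log2 difference from control was -0.50 ± 0.63 (SE). The sign at 5 mg/kg rests on 1 mouse, as the difference was 0.22 without replicate 2 of that dose. The group means thus ran from control over 5 mg/kg and 10 mg/kg to G007-LK. Control and 5 mg/kg overlap, as do 5 and 10 mg/kg, whereas 10 mg/kg and G007-LK do not.

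Adm did not separate the groups. Its signal was 32.65, 63.9 and 63.86 in G007-LK mice, against 14.5, 56.6 and 50.9 in control mice. The lower STP1002 dose gave 33.3, 51.7 and 59.5. The 10 mg/kg dose gave 41.5, 166.9 and 91.3. The mean was 53.5 ± 18.0 with G007-LK, 99.9 ± 63.1 with STP1002 at 10 mg/kg, 48.2 ± 13.5 at 5 mg/kg and 40.7 ± 22.8 in control mice (SD, n = 3 each), and every pair of groups overlapped. These values rest on 13 to 108 counts and lie between 1.58 and 7.48 times the background threshold of their library. The log2 difference from control was 0.54 ± 0.73 (SE) for G007-LK. The 5 mg/kg dose differed by 0.41 ± 0.73 and the 10 mg/kg dose by 1.28 ± 0.73. At 10 mg/kg it was 0.59 after median-ratio rescaling. Without control replicate 1, the lowest of all 12 Adm values, it was -0.07 for G007-LK, -0.19 at 5 mg/kg and 0.67 at 10 mg/kg, so the sign for G007-LK and for 5 mg/kg rests on that library.

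Between the compounds, which were given at different doses and by different routes, Hif1a and Car9 again stood apart in opposite directions. The log2 difference between G007-LK and STP1002 at 10 mg/kg was 2.12 ± 0.65 (SE) for Hif1a, -3.43 ± 0.63 for Car9 and -0.74 ± 0.73 for Adm. The median gene also stood at -0.74 here, and rescaled values were 2.84 for Hif1a, -2.71 for Car9 and -0.02 for Adm. Between G007-LK and STP1002 at 5 mg/kg the values were 2.40 ± 0.65 for Hif1a, -3.98 ± 0.63 for Car9 and 0.12 ± 0.73 for Adm, where the median gene was at -0.23. With the common background floor Car9 was at -2.64 against 10 mg/kg and -3.19 against 5 mg/kg. Without G007-LK replicate 1 Hif1a was at 1.09 against 10 mg/kg and 1.36 against 5 mg/kg. Hif1a did not overlap in either comparison, as for 6.15% of all genes against 10 mg/kg and 10.5% against 5 mg/kg in that direction. Neither did Car9, as for 16% and 9.49% of all genes. In either direction, 22.2% of genes separated G007-LK from 10 mg/kg and 20% separated it from 5 mg/kg. Between 10 and 5 mg/kg of STP1002 all 3 genes overlapped, with log2 differences of 0.28 ± 0.65 for Hif1a, -0.55 ± 0.63 for Car9 and 0.86 ± 0.73 for Adm, beside 0.56 for the median gene. Of all genes 10.6% did not overlap there, 8.72% being higher at 10 mg/kg. After rescaling Hif1a was at -0.30, so its sign between the doses turns with the scaling. Car9 was at -1.12 after rescaling, at 0.07 without replicate 3 of the 5 mg/kg dose and at -1.27 without replicate 2, so its sign there rests on 1 mouse. These comparisons share libraries with those against control and are not independent of them.

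**Figure D2:**
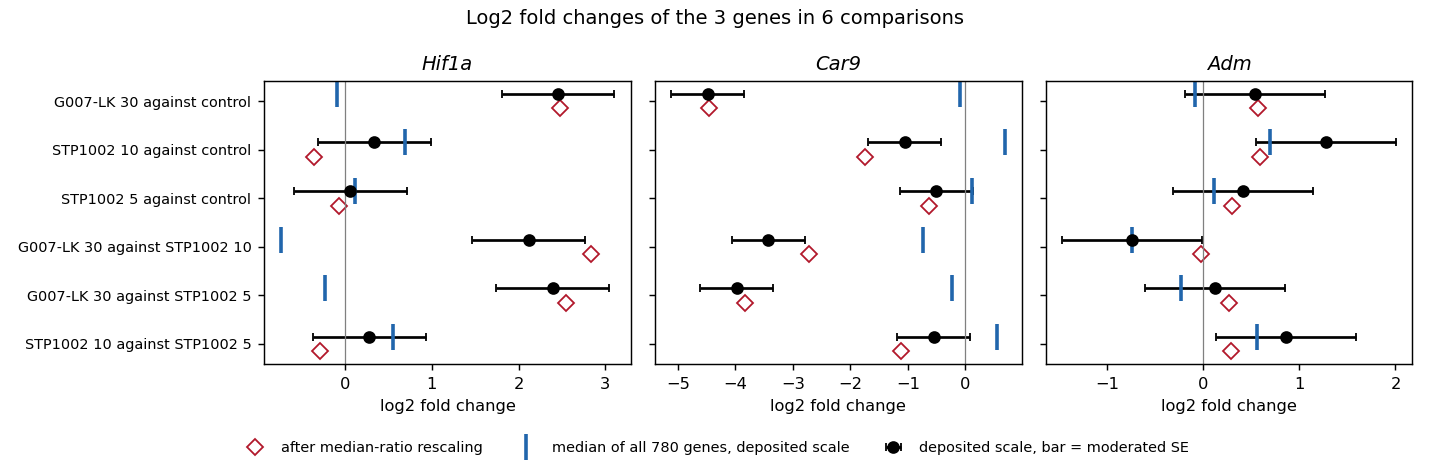
Log2 fold change of the 3 genes in 6 comparisons on the deposited scale (black, bar is the moderated SE) and after median-ratio rescaling (open diamond), beside the median of all 780 genes (blue). Hif1a is at 2.45 and Car9 at -4.48 between G007-LK and control, and the Adm points move towards 0 where the median of all genes is far from 0.

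The tissue is bulk ileum, and markers of other cells moved in the same libraries as these genes. Fewer cells of a type and less RNA per cell cannot be told apart in such data. Of 10 measured myeloid markers, 5 rose with G007-LK against control (limma, adjusted p under 0.05), as did 2.31% of all genes, and none fell. The summed signal of the 10 ranged from 3951 to 6906 with G007-LK and from 694.6 to 920.2 in control mice. The markers that rose were Cd68, Tyrobp, Cd14, Cybb and Cd84. Hif1a equalled 39.3%, 5.36% and 9.44% of that sum in G007-LK replicates 1 to 3, against 14.6%, 16.7% and 12.3% in control replicates 1 to 3. Per unit of myeloid signal Hif1a was thus highest in G007-LK replicate 1 and lower in the other 2 G007-LK mice than in any control mouse. All 3 mice on STP1002 at 10 mg/kg, with 11.2%, 10.9% and 9.09%, also lay below every control mouse. At 5 mg/kg the shares were 14.2%, 14.4% and 7.67%, the last below every control mouse.

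Of 8 measured epithelial markers, 3 fell with G007-LK, as did 1.15% of all genes, and none rose. They were the 14-3-3 protein Sfn, the protease inhibitor Spint2 and the receptor Erbb3. The summed signal of the 8 ranged from 565.0 to 1902 with G007-LK and from 4370 to 10637 in control mice. The general epithelial adhesion genes Epcam and Cdh1 did not pass the test, with log2 fold changes of -0.56 and -0.86. Car9 equalled 2.57%, 1.68% and 3.67% of the epithelial sum in G007-LK replicates 1 to 3, against 4.32%, 10.1% and 18.0% in control replicates 1 to 3. It was lower in all 3 G007-LK mice on this scale too, by less than in signal. Mice on 5 mg/kg STP1002 had shares of 5.12%, 6.96% and 6.89%. Those on 10 mg/kg had 4.99%, 5.70% and 5.07%. Set against these markers, the mice at 5 mg/kg lay closer together than in signal and the control mice lay further apart.

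Markers of 5 other cell types were measured. The summed signal of 4 fibroblast markers ranged from 1500 to 2390 with G007-LK and from 590.0 to 916.2 in control mice, without overlap. None of them was called between these 2 groups. Fbn1 was called higher with G007-LK against each dose of STP1002. So were 2.05% of all genes against 10 mg/kg and 1.79% against 5 mg/kg. With STP1002 at 10 mg/kg, where Car9 was lower than in control, 5 B cell markers summed to between 1004 and 1136, against 89.1 to 403.3 in control mice. At that dose 7 endothelial markers summed to between 707.2 and 1218, against 414.5 to 689.1 in control mice, and the 10 myeloid markers to between 1174 and 1924, against 694.6 to 920.2. These 3 sums did not overlap with control, in libraries whose median gene was 0.69 higher, and limma called no marker of any list there. The sums of 8 T and NK cell markers and of 2 smooth muscle markers overlapped between G007-LK and control, as did those of the endothelial and B cell markers. The part of cell composition in the changes of Hif1a and Car9 was not tested.

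**Figure D3:**
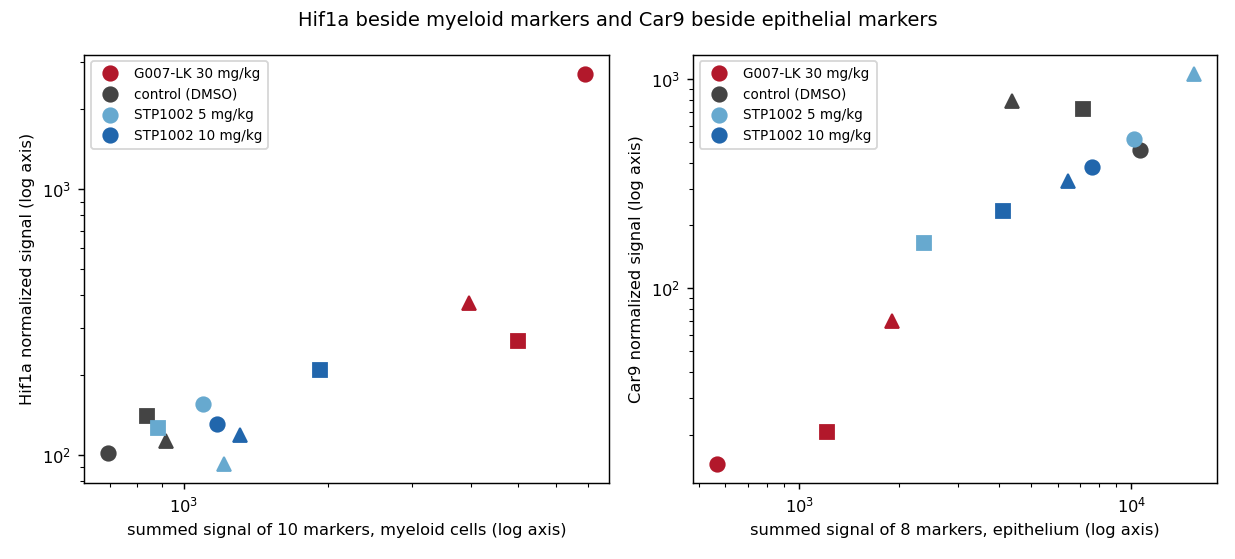
Hif1a signal against the summed signal of 10 myeloid markers and Car9 signal against that of 8 epithelial markers, 1 point per mouse on log axes (circle, square and triangle are replicates 1, 2 and 3). The G007-LK mice have the highest myeloid sums and Hif1a values and the lowest epithelial sums and Car9 values, and replicate 2 at 5 mg/kg of STP1002 is low in both Car9 and the epithelial sum.

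The genes whose profiles over the 12 libraries lay closest to each of the 3 were different. Likeness was the root mean square difference between log2(value + 1) profiles centred on their means, over 683 other genes with a mean above the mean background. Closest to Hif1a were Socs3, an inhibitor of cytokine receptors (0.32), Tnfaip3, an inhibitor of NF-kB (0.49), the proteoglycan Sdc1 (0.49), the receptor Il4ra (0.50) and the adhesion molecule Icam1 (0.55), where the median over all candidates was 1.63. Closest to Car9 were the cyclin Ccnd1 (0.72), Sfn (0.77), the kinetochore gene Nuf2 (0.82), Spint2 (0.83) and Erbb3 (0.87), with a median of 1.95. Closest to Adm were Sting1 (0.18), Braf (0.21), Angpt2 (0.22), Fgf7 (0.23) and Itgav (0.23), with a median of 0.76. Adm had 119 genes within 0.5 of it, against 4 for Hif1a and 0 for Car9. The measure is not scaled to how much a gene varies, so these counts also depend on that. About its own mean Adm varied by 0.80 (root mean square), Hif1a by 1.28 and Car9 by 1.91. Adm also followed the median of all genes of a library to within 0.31, while that distance was 1.58 for Hif1a and 1.88 for Car9.

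The other genes of the HIF pathway were taken from 8 lists of 134 genes, of which 55 were on the panel. Of these 55, limma called none when G007-LK was set against control (adjusted p under 0.05), where it called 3.46% of all genes. At an unadjusted p under 0.05 there were 12 of the 55, beside 103 of all 780 genes. On the recovered counts edgeR called 1 of the 55, beside 32 of all genes. The median log2 fold change of the 55 was 0.28, with 30 above 0, beside -0.09 for all genes. A fit with replicate numbers as blocks called 6 of the 55 (4 higher and 2 lower) and 63 of all genes, or 8.08%. No pH regulator other than Car9 was measured.

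Among the subunits and oxygen sensors, 0 of 4 measured genes passed the test. Epas1, which encodes the HIF-2 subunit, had a log2 fold change of 0.93 ± 0.72 (SE) between G007-LK and control, with 2994, 350.2 and 1312 in G007-LK mice against 1054, 358.3 and 520.8 in control mice. Egln3, a prolyl hydroxylase that is itself a HIF target, had -0.56 ± 0.79, and Rbx1, a subunit of the von Hippel-Lindau ligase, had 0.37 ± 0.39. Among 4 coactivators and modulators, none passed, with Trp53 at -1.12 ± 0.50, its inhibitor Mdm2 at 1.03 ± 0.63 and the acetyltransferase Crebbp at 0.45 ± 0.43. Rbx1, Trp53 and Mdm2 did not overlap between G007-LK and control, as for 18.1% of all genes in either direction.

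Of 9 measured genes that feed into Hif1a transcription and translation, none passed against control. Stat3, a transcription factor downstream of cytokine receptors, had a signal of 1346, 163.6 and 355.1 in G007-LK replicates 1 to 3, against 194.2, 51.2 and 141.0 in control replicates 1 to 3. As with Hif1a, replicate 1 is far above the other G007-LK mice, and here the groups overlap. Its log2 fold change was 1.92 ± 0.74 (SE; limma adjusted p = 0.204), and 0.014 was the limma adjusted p with the replicate block. Against STP1002 at 10 mg/kg, where Stat3 was 109.9, 24.9 and 53.2, it rose by 2.99 ± 0.74 (SE; limma adjusted p = 0.0311) and was the 1 of 55 pathway genes called, where 3.08% of all genes were, 2.05% being higher. The value of 24.9 rests on 13 counts and lies under the background threshold of its library, 34.0. Stat3 was not called there after median-ratio rescaling, with a common background floor, or without G007-LK replicate 1 or any one replicate of that dose. The kinase Akt1 had 0.91 ± 0.50 and the NF-kB subunit Nfkb1 0.57 ± 0.61 against control. With the replicate block 15 of the 55 were called between G007-LK and STP1002 at 10 mg/kg, 6 higher and 9 lower, beside 33.3% of all genes.

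Of 10 glucose uptake and glycolysis genes, none passed between G007-LK and control, and 3 had a log2 fold change above 0. The glucose transporter Slc2a1 had 280.2, 161.0 and 133.7 in G007-LK mice against 86.3, 78.1 and 86.1 in control mice. Its log2 difference was 1.12 ± 0.47 (SE; limma adjusted p = 0.282). The groups did not overlap, as for 10.1% of all genes in that direction. The aldolase Aldoa had 2667, 2998 and 2195 in G007-LK mice against 9907, 5189 and 7784 in control mice. It differed by a log2 value of -1.50 ± 0.67 (SE; limma adjusted p = 0.321), likewise without overlap, as for 7.95% of all genes in that direction. The phosphofructokinase Pfkp had -1.27 ± 0.45 (SE; limma adjusted p = 0.16), also without overlap. Most of the list, 7 of 10 genes, had a log2 fold change below 0. The only genes above 0 besides Slc2a1 were the enzymes Hk2 and Pfkfb3, named after their values were seen, with 0.61 ± 0.89 and 0.51 ± 0.54.

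Of 15 vascular HIF targets, none passed between G007-LK and control, and 6 were above 0. Vegfb, a growth factor of the vascular endothelial family, had 24.2, 43.5 and 12.8 in G007-LK mice against 191.6, 70.0 and 74.4 in control mice. Its log2 difference was -2.02 ± 0.68 (SE; limma adjusted p = 0.138, and 0.0229 with the replicate block). The groups did not overlap, as for 7.95% of all genes in that direction. Hmox1, which degrades haem, had 1.58 ± 0.69 (SE; limma adjusted p = 0.308). Vegfa, the best known vascular target of HIF-1 and named here after its values were seen, had 248.8, 89.5 and 63.0 in G007-LK mice against 237.0, 153.6 and 125.3 in control mice, for a log2 difference of -0.56 ± 0.60 (SE; limma adjusted p = 0.805).

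Of 12 other HIF targets, none passed between G007-LK and control, and 8 were above 0. Mcl1, which blocks apoptosis, had 2207, 1099 and 1810 in G007-LK mice against 908.2, 431.1 and 415.1 in control mice. It differed by a log2 value of 1.58 ± 0.47 (SE; limma adjusted p = 0.0836, and 0.0276 with the replicate block). These groups did not overlap, as for 10.1% of all genes in that direction. The transcriptional repressor Bhlhe40 had 2.88 ± 0.88 (SE; limma adjusted p = 0.1, and 0.00334 with the replicate block), without overlap, and was above background in 6 of 12 libraries. The transferrin receptor Tfrc had 92.2, 40.9 and 29.8 in G007-LK mice against 518.4, 134.7 and 133.1 in control mice. It differed by a log2 value of -2.10 ± 0.66 (SE; limma adjusted p = 0.1, and 0.00618 with the replicate block). Its groups did not overlap either, as for 7.95% of all genes in that direction. Of the receptors and processing enzymes of adrenomedullin, the panel holds Ackr3, a decoy receptor, with 0.35 ± 0.69.

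With STP1002 none of the 55 genes passed limma against control at 5 or at 10 mg/kg, where 0% of all genes did at either dose. None of the 55 was at an unadjusted p under 0.05 at either dose, where 18 of all 780 genes were at 5 mg/kg and 36 at 10 mg/kg. With edgeR, too, 0 of the 55 and 0 of all genes were called. At 10 mg/kg the median log2 fold change of the 55 was 0.37, beside 0.69 for all genes, and at 5 mg/kg it was 0.04, beside 0.12. At 10 mg/kg Slc2a1 had 0.75 ± 0.47 (SE), Aldoa -0.86 ± 0.67 and Stat3 -1.07 ± 0.74. Between G007-LK and STP1002 at 5 mg/kg 0 of 55 passed limma, where 2.82% of all genes passed, 1.79% being higher. At an unadjusted p under 0.05 there were 8 of the 55, beside 99 of all 780 genes. Between the STP1002 doses 0 of 55 and 0% of all genes passed, with 0 of the 55 at an unadjusted p under 0.05.

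**Figure D4:**
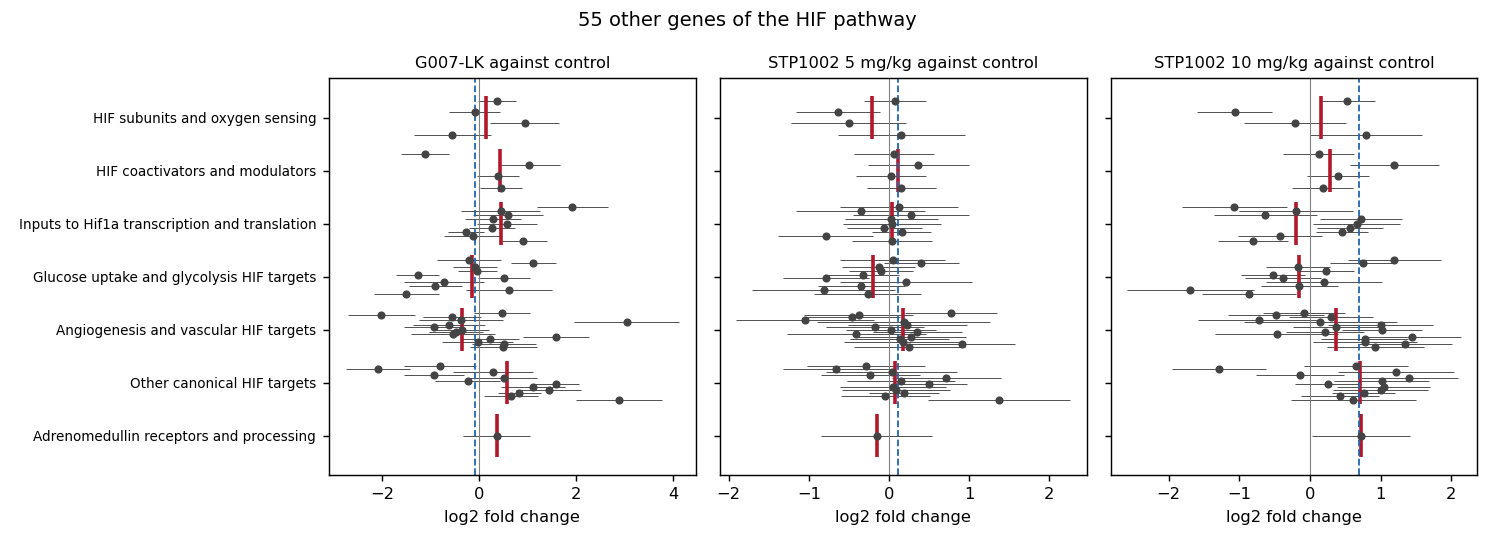
Log2 fold change of the 55 measured HIF pathway genes other than Hif1a, Car9 and Adm, by list, against control for G007-LK and for STP1002 at 5 and 10 mg/kg, with the moderated SE as a bar, the median of each list in red and the median of all 780 genes as a dashed blue line. The genes scatter to both sides of the dashed line in each list of 4 or more genes, with Tfrc at -2.10 and Bhlhe40 at 2.88 among the G007-LK values.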

How the data were processed

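Per the labels' protocols, total RNA of ileum was extracted with a MasterPure kit, kept at an RNA integrity number above 7.0 and counted on a panel of 760 tumour and 20 housekeeping genes. The deposited values are a normalized signal on a linear scale, whose software and reference genes are not given in the sources used here. As found from the values, each gene value is a whole count times 1 factor per library, within 0.0051 for 98.7% to 100% of genes. On these counts edgeR called 32 genes between G007-LK and control, where limma called 27. The 8 negative and 6 positive control probes are unscaled. The depth was 31901 to 508799 counts, and intervals cover counting error only.

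All 780 genes were fitted with limma 3.58.1 in R 4.3.3 on log2(value + 1), with 1 mean per group over 12 libraries and a mean-variance trend. Two-sided p-values were adjusted by Benjamini-Hochberg over 780 genes and called under 0.05. Replicates are separate mice. In simulated data for G007-LK against control on 780 genes, 96.6% of genes changed by 4 on the log2 scale were called, and 60.6% of those changed by 2. Of 2900 unchanged genes, 33 were called. The values were drawn independently from normal distributions, without depth differences or deviations shared by the genes of a library. These shares therefore cannot be carried over to the measured libraries. Alternatives were a pseudocount of 10, removal of low genes, 2 rescalings, a background floor, the replicate block, edgeR 4.0.16 on the recovered counts and omission of libraries. Deviations of same-numbered libraries from their group means correlated across genes at 0.307 to 0.60 between G007-LK and control. The range was 0.144 to 0.559 between G007-LK and STP1002 at 10 mg/kg and 0.159 to 0.776 between that dose and control. The replicate block was run as an alternative only, and the main fit and its calls use no pairing. The sample titles number the mice within each group and do not say that equal numbers belong together. Deviations of differently numbered libraries were not compared. With STP1002 at 5 mg/kg some pairs were near 0 (lowest 0.0112). The members and lists were chosen with earlier results of these data known. Named are the 3 genes, called pathway genes and the 3 per list with the smallest p between G007-LK and control, 5 most similar genes each, and called cell markers. Gene positions and promoters come from RefSeq tables of GRCm38.p6, used because the files hold symbols only. Of 780 symbols, 577 had a promoter entry. One gene that the naming rule picks is not reported here.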

Additional observations from a re-analysis of the deposited data

How the results depend on the processing

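Car9 was below control with G007-LK, and Hif1a above it, under all 20 alternatives run. Several of these could not change the difference. Omission of an STP1002 library, removal of low genes and the replicate block return its main value by construction. Leaving out 1 library at a time gave Car9 log2 differences of -5.13 to -4.04 and Hif1a differences of 1.42 to 3.09. Outside these ranges, Car9 was -3.69 with the common background floor, and Hif1a was 3.71 with edgeR and 1.32 without the 2 deepest libraries. Between STP1002 at 10 mg/kg and control, Hif1a moved to -0.36, -0.45 and -0.31 and Car9 to -1.75, -1.54 and -1.51 with median-ratio rescaling, quantile normalization and edgeR. Between 10 and 5 mg/kg, Hif1a moved to -0.30, -0.42 and -0.32 in the same order. With edgeR, Hif1a was 4.02 between G007-LK and 10 mg/kg and 3.70 between G007-LK and 5 mg/kg, and with quantile normalization Adm was 0.29 between G007-LK and 10 mg/kg.

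Of the 27 calls among all genes between G007-LK and control, the count was 14 with median-ratio rescaling, 7 with a common background floor, 63 with the replicate block and 16 to 47 without 1 library. The pathway count of 0 became 2 with quantile normalization, 6 with the replicate block, 1 with edgeR, 1 without the 2 deepest libraries and 0 to 3 without 1 library. Between G007-LK and STP1002 at 10 mg/kg, the 24 calls became 2 with the floor, 260 with the block, 38 without the 2 deepest libraries and 3 to 53 without 1 library. There the pathway count of 1 became 0 with median-ratio rescaling, 0 with the floor, 15 with the block, 2 without the 2 deepest libraries and 0 to 1 without 1 library. Between G007-LK and 5 mg/kg, the 22 calls became 6 with median-ratio rescaling, 10 with the floor, 12 with edgeR, 34 without the 2 deepest libraries and 7 to 33 without 1 library. The pathway count of 0 became 1 without the 2 deepest libraries and 0 to 1 without 1 library. With the replicate block that comparison gave 61 calls, 2 of them in the pathway. Without the 2 deepest libraries, 5 genes were called between 10 mg/kg and control and 3 between 5 mg/kg and control, against 0 with all libraries. The cause of these changes was not tested. With 8 counts, the second G007-LK value of Car9 lies under its background threshold and sets no lower limit.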
